A study of Mus musculus with 2 samples.

Results

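Amelotin (Amtn), Prol1 and 5 related genes for secreted phosphoproteins were described in mammary tumors of MMTV-PyVT mice, a transgenic line in which a mammary tumor virus promoter drives the middle T antigen of polyoma virus. The 7 genes, Amtn, Odam, Ambn, Enam, Prol1, Smr3a and Spp1, were found by symbol among 55536 genes, and each had 1 row. They were chosen by symbol, as non-casein genes of this group on chromosome 5 and neighbours. The TPM of Amtn and Prol1 in these same tumors was known at that point, so every difference below is a description and none is tested. Both groups carry the transgene. The C3G group received the plant pigment cyanidin-3-glucoside, an anthocyanin, and the DMSO group received the vehicle dimethyl sulfoxide, in each case from the time the ducts showed hyperplasia until tumors met a set burden. The labels give no strain, age, sex or dose. RNA sequencing gave 1 tumor library per group, so no value has a replicate check and a difference between the treatments cannot be told apart from one between individual tumors.

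The C3G library held 16081110 gene-assigned reads and the DMSO library 12192275, recovered from the deposited TPM values (transcript abundance per gene length, scaled to a fixed library total). Intervals in parentheses are exact 95% intervals for counting error alone. A gene was called by size if 1 of its 2 TPM values reached 5 and log2((C3G TPM + 1)/(DMSO TPM + 1)) was at most -1 (lower) or at least 1 (higher). Of 12780 genes that reached 5 TPM, 550 (4.30%) were lower and 396 (3.10%) were higher in the C3G tumor. Among the 11909 of these with at least 50 reads over both libraries, 2.62% were lower and 1.83% higher. Centring the ratios on the median of well-expressed genes (mean TPM of 10 or more), a shift of 0.12 on the log2 scale, gave 663 lower and 298 higher genes, or 31.0% upward calls against 41.9% without centring. All 7 luminal epithelium markers searched were present, with keratin 18 (Krt18) at 1769 TPM in the C3G tumor and 2824 TPM in the DMSO tumor, as the mammary tumor label says.

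Secretory calcium-binding phosphoproteins are extracellular proteins, rich in acidic or in proline and glutamine residues, that arose by tandem duplication and serve enamel, dentin, bone, milk and saliva. Ameloblasts, the cells that lay down enamel, secrete ameloblastin (Ambn) and enamelin (Enam) while the matrix forms, and amelotin and the odontogenic ameloblast-associated protein (Odam) as it matures. Amelotin and Odam also occur in the junctional epithelium that seals gum to tooth. Prol1 and Smr3a encode proline-rich secreted proteins known from mouse salivary and lacrimal glands. Osteopontin, encoded by Spp1, is an acidic phosphoprotein that binds integrins and CD44 and is made by bone cells, macrophages and many carcinomas.

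All 7 genes lie on the plus strand of chromosome 5 (mm10). Odam (chr5:87885029-87894174), Smr3a (chr5:88002549-88008534), Prol1 (chr5:88317312-88328814), Amtn (chr5:88376108-88385916), Ambn (chr5:88455991-88468531) and Enam (chr5:88487975-88506049) follow each other within 621 kb, and Spp1 (chr5:104435118-104441050) lies 15.9 Mb beyond Enam. Prol1 ends 47.3 kb before Amtn begins. Their longest annotated transcripts fall into different layouts: those of Amtn, Odam, Ambn and Enam had 9, 12, 11 and 10 exons, those of Prol1 and Smr3a had 3 each and that of Spp1 had 6.

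The 250 bases before the RefSeq start are shown for the neighbours Prol1 and Amtn, whose RNA was lower together in the C3G tumor, for Odam of the same locus, whose reads did not separate the tumors, and for Spp1, the gene with the highest level. The sequences are from RefSeq (GRCm38.p6, the assembly of mm10) and run 5′ to 3′ on the plus strand. The RefSeq starts of Odam, Smr3a and Spp1 lie slightly upstream of the GENCODE starts given above, and distances to the start are counted from the RefSeq start. Capitals mark CCAAT on either strand, read as ATTGG on the reverse strand.
Prol1, chr5:88317062-88317311: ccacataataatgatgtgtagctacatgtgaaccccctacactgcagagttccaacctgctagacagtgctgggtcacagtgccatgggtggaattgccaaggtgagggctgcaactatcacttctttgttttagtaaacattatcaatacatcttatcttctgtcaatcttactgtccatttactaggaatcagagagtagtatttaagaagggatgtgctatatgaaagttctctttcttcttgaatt
Amtn, chr5:88375858-88376107: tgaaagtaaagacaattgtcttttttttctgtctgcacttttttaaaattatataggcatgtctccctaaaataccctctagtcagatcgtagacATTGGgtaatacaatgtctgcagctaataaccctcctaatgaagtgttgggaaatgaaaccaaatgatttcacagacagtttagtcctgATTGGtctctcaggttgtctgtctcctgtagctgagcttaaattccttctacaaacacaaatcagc
Odam, chr5:87884760-87885009: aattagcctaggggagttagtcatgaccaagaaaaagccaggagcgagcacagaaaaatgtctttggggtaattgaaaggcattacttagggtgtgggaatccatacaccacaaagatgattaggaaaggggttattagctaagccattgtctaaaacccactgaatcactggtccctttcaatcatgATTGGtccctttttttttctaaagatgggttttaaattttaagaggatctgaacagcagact
Spp1, chr5:104434861-104435110: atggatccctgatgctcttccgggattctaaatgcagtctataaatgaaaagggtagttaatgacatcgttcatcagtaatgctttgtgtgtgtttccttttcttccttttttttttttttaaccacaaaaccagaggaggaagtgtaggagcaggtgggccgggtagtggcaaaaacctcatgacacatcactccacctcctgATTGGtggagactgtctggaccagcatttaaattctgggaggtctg

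The CCAAT motif, which is known to be bound by the factor NF-Y, was present in the windows of 6 of the 7 genes at their first start, and Prol1 was the exception. Amtn held it at 155 and 66 bases before the start, Odam at 62 and Spp1 at 46. Of 32851 windows of this length in the RefSeq table, 33.9% held the motif on either strand. The RUNX-type letters ACCACA, searched on both strands like every motif here, were in 3 of the 7 windows, those of Odam, Smr3a and Spp1, against 14.0% of all windows. TATAAA was in 2, Enam and Spp1, against 12.4%, and the AP-1 type letters TGANTCA were in 2, Odam and Smr3a, against 6.75%. The STAT-type letters TTCNNNGAA were in none of the 7, against 7.02% of all windows. No match overlapped another among these 7 windows. The motifs were picked after the windows had been read, and a match describes letters, not binding.

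Amtn, the enamel maturation gene, was lower in the C3G tumor. It stood at 4.81 TPM (27 reads) in the C3G tumor and 28.4 TPM (126 reads) in the DMSO tumor, 5.91-fold lower (3.88 to 9.33), a log2 ratio of -2.34. The counting intervals of its level were 3.17 to 6.995 TPM in the C3G tumor and 23.7 to 33.9 TPM in the DMSO tumor. Both values were known when Amtn was chosen, so the gap between the intervals is a description and not a test. No base of its exons was shared with another annotated gene, and none of its 50-base stretches occurred in transcripts of another gene.

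Prol1 had the lowest ratio of the 7. Its level was 2.35 TPM (15 reads) in the C3G tumor and 22.6 TPM (114 reads) in the DMSO tumor, 9.63-fold lower (5.60 to 17.8), a log2 ratio of -2.82. Its exons, like those of Amtn, shared no base and no 50-base stretch with another gene. The interval of its fold overlapped that of Amtn, so counting error does not separate the sizes of the 2 differences. Counted from the lowest log2 ratio among the genes that reached 5 TPM, Prol1 was number 49 and Amtn number 85 of 12780. Among those that also had at least 50 reads, a minimum added after the data were seen, they were number 6 and number 13 of 11909. That contrast was used to choose both genes.

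**Figure D1:**
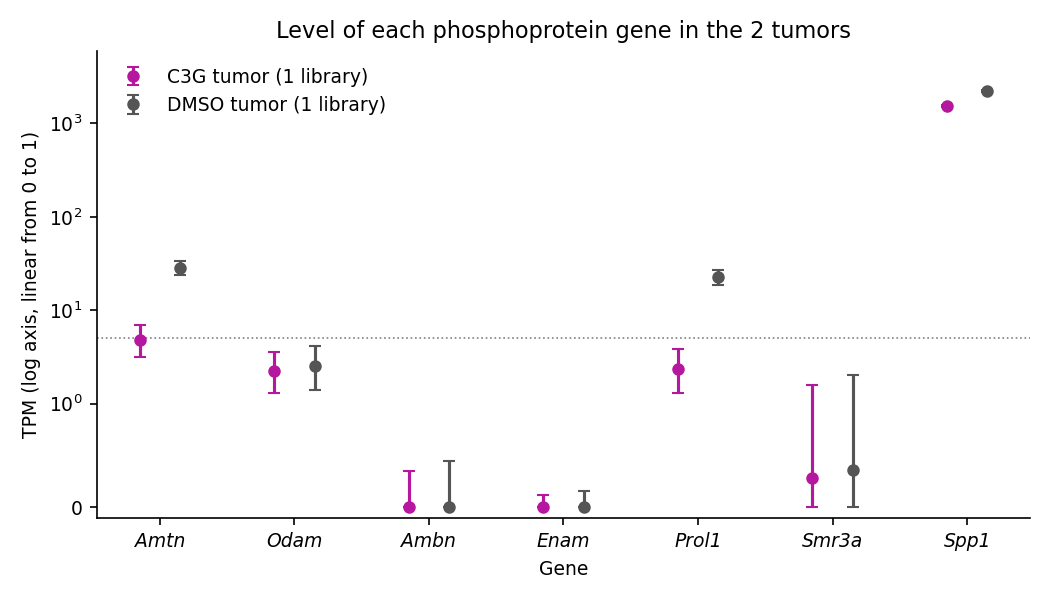
Level of each of the 7 genes in TPM (log axis, linear between 0 and 1) in the C3G tumor and the DMSO tumor, 1 library each, with bars for the exact 95% counting interval and a dotted line at 5 TPM. Amtn and Prol1 sit at 4.81 and 2.35 TPM in the C3G tumor and at 28.4 and 22.6 TPM in the DMSO tumor, Ambn and Enam are at 0 in both, and Spp1 is above 1000 TPM in both.

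Odam, the other maturation-stage gene, was low in both tumors. It stood at 2.25 TPM (17 reads) in the C3G tumor and 2.51 TPM (15 reads) in the DMSO tumor, a ratio of 0.894 (0.420 to 1.92). No difference was detectable at this depth, and the interval does not reach the ratio of Amtn, 0.169 (0.107 to 0.258). Set against Odam within each library, which removes any scaling of the library, Amtn was 2.14-fold (1.12 to 4.18) as high in the C3G tumor and 11.3-fold (6.60 to 20.8) in the DMSO tumor. Prol1 was 1.04-fold (0.485 to 2.22) as high as Odam in the C3G tumor and 8.99-fold (5.23 to 16.6) in the DMSO tumor. Amtn and Prol1 themselves kept closer to each other, with Amtn 2.05-fold (1.05 to 4.14) as high as Prol1 in the C3G tumor and 1.26-fold (0.968 to 1.63) in the DMSO tumor. The values of Amtn and Prol1 were known when they were chosen, so these comparisons with Odam and with each other are descriptions.

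The matrix genes of forming enamel had no read. Ambn was at 0 TPM in both tumors, and a count of 3 reads, taken as the limit that a count of 0 allows, would be 0.285 TPM in the C3G library and 0.361 TPM in the DMSO library. Enam was also at 0 in both, with limits of 0.0994 TPM in the C3G library and 0.126 TPM in the DMSO library. Of 8 ameloblast markers, which include Amtn, Ambn and Enam, 6 were at 0 in both tumors, among them the enamel proteases Mmp20 and Klk4, the transcription factor gene Sp6, and Odaph. The amelogenin gene Amelx had 5 reads in the C3G tumor and 3 in the DMSO tumor. The list summed to 5.72 TPM in the C3G tumor and 29.1 TPM in the DMSO tumor, most of it Amtn.

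Smr3a, the salivary gene, had 1 read in each tumor, at 0.285 TPM in the C3G tumor and 0.361 TPM in the DMSO tumor, a ratio of 0.789 (0.0101 to 61.9) that these reads leave undetermined. Exons of the overlapping locus Gm28434 cover 49.5% of its exon bases, so its assignment of reads is uncertain as well. Its relative Smr2, also a salivary gene, stood at 2.56 TPM (19 reads) in the C3G tumor and 2.90 TPM (17 reads) in the DMSO tumor, a ratio of 0.882 (0.434 to 1.81). Of 12 salivary and lacrimal gland markers, which include Smr2, 3 reached 5 TPM. None of the 3 was lower by size and 1 was higher, beside 4.30% lower and 3.10% higher over all genes. With 3 genes these calls do not show whether the list goes with Prol1. The gene called higher was the amylase gene Amy1, at 8.66 TPM in the C3G tumor and 3.48 TPM in the DMSO tumor. The water channel gene Aqp5 stood at 697 TPM in the C3G tumor and 589 TPM in the DMSO tumor, and Bhlha15, a transcription factor gene of secretory cells, at 107 and 57.3 TPM in the C3G and DMSO tumors. Dcpp1 and Smgc, which are known from mouse salivary glands, were at 0 in both. The summed level of the list was 818 TPM in the C3G tumor and 653 TPM in the DMSO tumor.

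Spp1 was the most abundant of the 7 by far and was lower by less than the size threshold. It stood at 1536 TPM (13911 reads) in the C3G tumor and 2226 TPM (15904 reads) in the DMSO tumor, 1.45-fold lower (1.42 to 1.48), a log2 ratio of -0.53. It was gene number 68 by TPM in the C3G tumor and number 43 in the DMSO tumor, and it made up 99.4% and 97.6% of the summed TPM of the 7 genes in the C3G and DMSO tumors. Without it the remaining 6 genes summed to 9.69 TPM in the C3G tumor and 53.9 TPM in the DMSO tumor. Macrophages are a known source of osteopontin. Beside 4.30% lower and 3.10% higher over all genes, none of the 11 macrophage markers, which all reached 5 TPM, was called by size. Their summed level was 1913 TPM in the C3G tumor and 2060.4 TPM in the DMSO tumor, with a median log2 ratio of -0.11, or -0.23 with centring. The markers were mixed, 6 with a log2 ratio below 0 and 5 above. Gpnmb stood at 19.6 TPM in the C3G tumor and 9.77 TPM in the DMSO tumor, a ratio of 2.01 (1.75 to 2.32). Trem2 had a ratio of 1.56 (1.29 to 1.90), while C1qa had 0.796 (0.751 to 0.843). Luminal epithelium markers, another possible source, summed to 5601 TPM in the C3G tumor and 7609 TPM in the DMSO tumor. All 7 reached 5 TPM, and 1, Krt19, was lower by size and 0 higher, beside the same shares over all genes. The lower sum rests on the keratins Krt8, Krt18 and Krt19. The median log2 ratio of the list was -0.09, and the adhesion genes Epcam and Cdh1 had ratios of 0.943 and 0.951 and the claudin genes Cldn4 and Cldn7 of 1.09 and 1.20. The part of these cells in the Spp1 values was not tested, and in whole tumors fewer cells of a type and less RNA per cell cannot be told apart.

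By level, the order in the C3G tumor was Spp1, Amtn, Prol1, Odam and Smr3a, and the intervals of Amtn, Prol1 and Odam overlapped there. In the DMSO tumor the order was the same, but Amtn (23.7 to 33.9 TPM) and Prol1 (18.6 to 27.2 TPM), which overlap each other, lay apart from Odam (1.41 to 4.15 TPM). Smr3a overlapped Odam in both tumors. Of the 7 genes, 3 reached 5 TPM, and Amtn and Prol1 did so in the DMSO tumor only. Of these 3, 2 were lower by size and 0 higher, beside 4.30% lower and 3.10% higher over all genes. The same 2 were lower with at least 50 reads, beside 2.62% lower and 1.83% higher. These counts follow from how the genes were chosen.

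**Figure D2:**
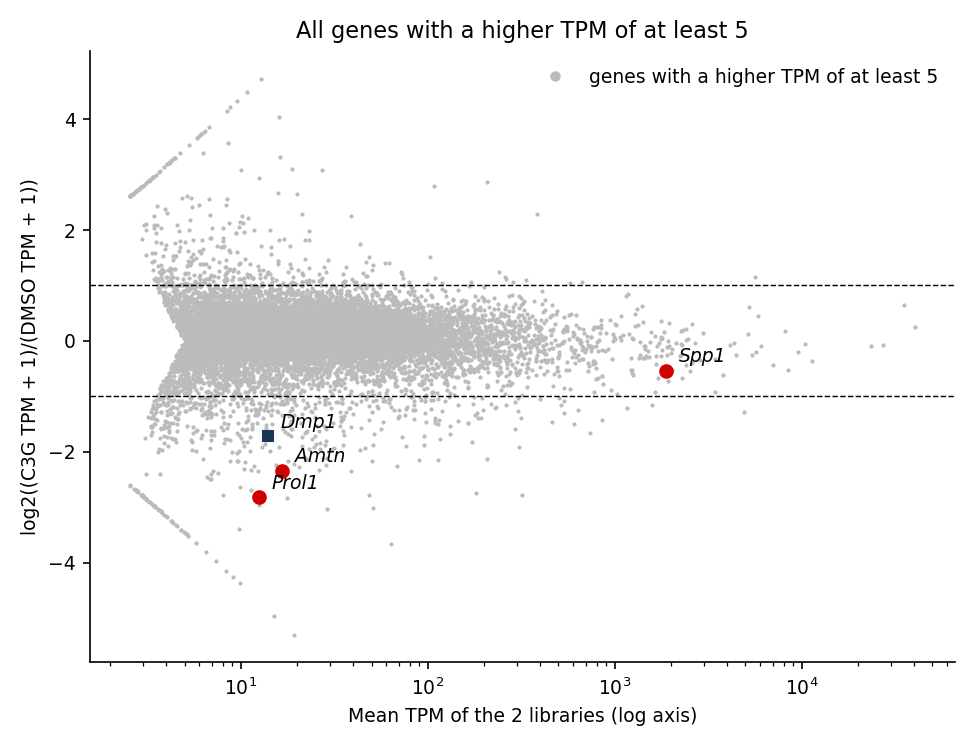
Log2 ratio of TPM + 1, C3G over DMSO, against the mean TPM of the 2 libraries (log axis) for 12780 genes with 5 TPM or more in either tumor, with dashed lines at -1 and 1. Amtn, Prol1 and Dmp1 lie below the lower line, and Spp1 lies between the lines at -0.53.

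Along the locus, few genes had levels that allowed a call. Between 3 protein-coding genes before Odam and 3 after Enam the annotation holds 20 protein-coding genes, of which 8 were at 0 in both tumors and 5 reached 5 TPM. Of these 5, 2 were lower by size and 0 higher, beside 4.30% lower and 3.10% higher over all genes. The 2 are Amtn and Prol1, whose values were known when they were chosen, so the count says nothing about the locus. The kappa-casein gene Csn3, which lies between Odam and Smr3a, stood at 10186 TPM in the C3G tumor and 10598 TPM in the DMSO tumor, a ratio of 0.961 (0.955 to 0.967). On the far side of Enam, Utp3, a ribosome biogenesis gene, stood at 123 TPM in the C3G tumor and 147 TPM in the DMSO tumor, and Rufy3 at 6.49 and 6.80 TPM in the C3G and DMSO tumors. Jchain, which joins immunoglobulin subunits in plasma cells, had 17 reads in the C3G tumor and 39 in the DMSO tumor, or 1.23 TPM in the C3G tumor and 3.57 TPM in the DMSO tumor. Its log2 ratio was -1.04, but it did not reach 5 TPM and so could not be called. Of the remaining neighbours, Csn1s2a stood at 3.06 TPM in the C3G tumor and 1.71 TPM in the DMSO tumor, Csn1s2b at 1.92 and 2.27 TPM in the C3G and DMSO tumors, and Cabs1 had 2 reads in the C3G tumor and 0 in the DMSO tumor. Prr27, 2310003L06Rik, Gm28434, Gm11116, Gm11115 and Gm7714 had no read.

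**Figure D3:**
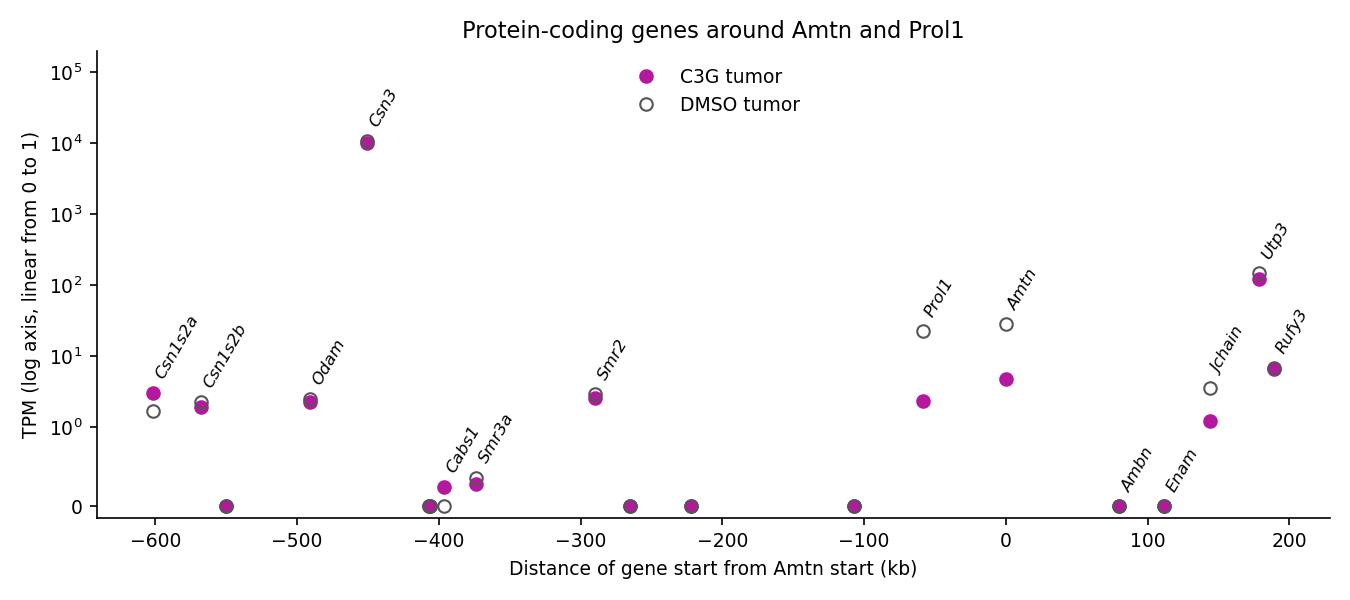
TPM (log axis, linear between 0 and 1) of the 20 protein-coding genes around Amtn and Prol1 in the C3G tumor (filled) and the DMSO tumor (open), against the distance of each gene start from that of Amtn in kb. Prol1 and Amtn, chosen with their values known, have a wide gap between the tumors, while Csn3, Odam, Smr2, Utp3 and Rufy3 nearly coincide. Jchain has a smaller gap, at 1.23 TPM in the C3G tumor and 3.57 TPM in the DMSO tumor. Csn1s2a goes the other way, at 3.06 and 1.71 TPM in the C3G and DMSO tumors.

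Spp1 closes a second run of family genes that are known from bone and dentin. Its nearest neighbour with reads on that side, Dmp1, encodes a matrix protein of dentin and osteocytes and lies 221 kb before Spp1 (chr5:104202613-104214102). Dmp1 stood at 5.99 TPM (91 reads) in the C3G tumor and 21.9 TPM (263 reads) in the DMSO tumor, 3.66-fold lower (2.88 to 4.70). Of the 7 protein-coding genes in this stretch, 4 reached 5 TPM. Of these 4, 1 (Dmp1) was lower by size and 0 higher, beside 4.30% lower and 3.10% higher over all genes. Mepe and Ibsp, between Dmp1 and Spp1, were at 0 in both tumors. On the other side, the polycystin gene Pkd2 stood at 21.4 TPM in the C3G tumor and 18.1 TPM in the DMSO tumor, BC005561 at 24.9 and 41.9 TPM, and Zfp951 at 2.92 and 0.731 TPM, in the C3G and DMSO tumors.

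Other genes of the family were read as a list of 16, of which 15 were found and 8 had a mean of at least 1 TPM. Their median log2 ratio was -0.15, beside 0.10 over all 17468 genes at that level. It was -0.49 over members with a mean of at least 5 TPM, -0.27 with centring and 0.00 with no filter on low values, so its size depended on these settings. Of 4 that reached 5 TPM, 1 was lower (Dmp1) and none higher by size, beside 4.30% lower and 3.10% higher over all genes. Sparc, which encodes the matrix glycoprotein osteonectin, stood at 1013 TPM in the C3G tumor and 1452 TPM in the DMSO tumor, 1.43-fold lower (1.41 to 1.46). Its relative Sparcl1, from which the family is thought to descend and which lies beside the Spp1 run, stood at 410.3 TPM in the C3G tumor and 566 TPM in the DMSO tumor, 1.38-fold lower (1.33 to 1.43). The fold of Spp1 was close to both, so these 3 abundant acidic genes had like ratios while Amtn, Prol1 and Dmp1 had lower ones. The kappa-casein gene Csn3, the most abundant of the list, had a ratio nearer to 1, 0.961 (0.955 to 0.967). Dspp and Odaph, of dentin and enamel, were at 0 in both, as were Ibsp and Mepe. Csn1s1 and Csn1s2a, milk caseins, had ratios above 1, 1.51 (1.16 to 1.99) and 1.79 (1.11 to 2.96).

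**Figure D4:**
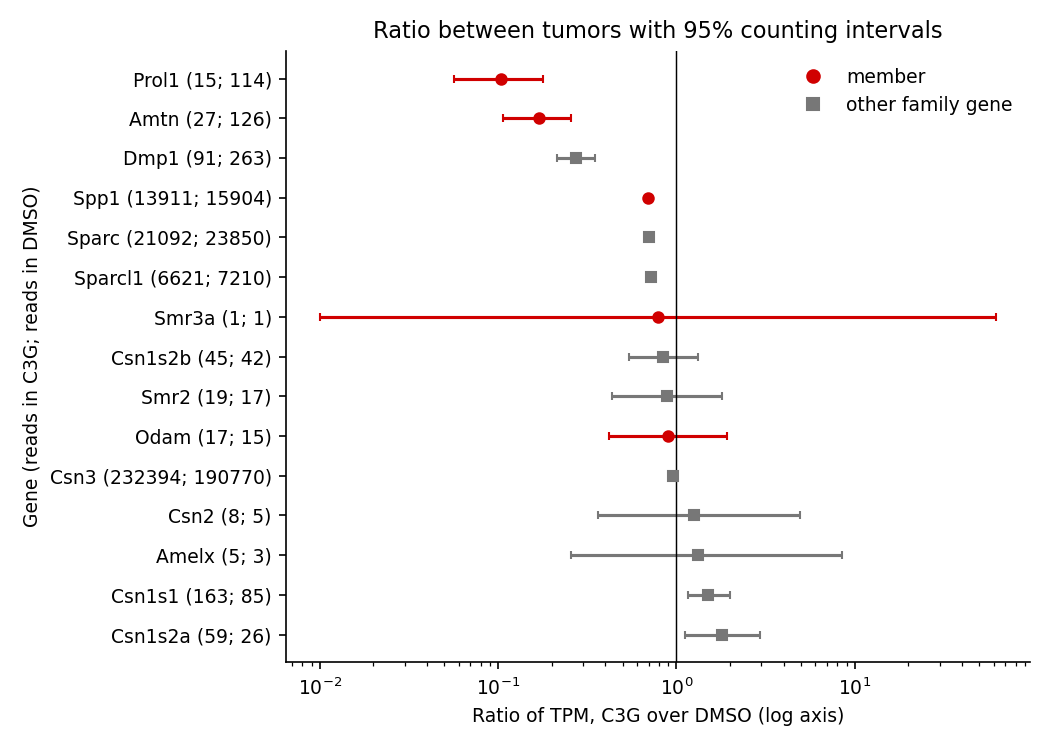
Ratio of TPM, C3G over DMSO (log axis), for family genes with a read in both tumors, with exact 95% counting intervals; the read counts of the C3G and DMSO tumors stand beside each name. Prol1, Amtn and Dmp1 lie at 0.104, 0.169 and 0.273, Spp1, Sparc and Sparcl1 between 0.690 and 0.725, and the intervals of Odam, Smr2 and Smr3a span 1.

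Secreted phosphoproteins are phosphorylated in the Golgi by the kinase FAM20C and then cut by proteases. Of 12 genes for these steps 7 reached 5 TPM and none was called by size, beside 4.30% lower and 3.10% higher over all genes. Fam20c itself stood at 12.3 TPM in the C3G tumor and 6.62 TPM in the DMSO tumor, a ratio of 1.87 (1.57 to 2.22). Mmp12 and Mmp3, matrix metalloproteases, stood at 3.39 and 49.8 TPM in the C3G tumor and at 5.26 and 63.4 TPM in the DMSO tumor. The transglutaminase gene Tgm2, whose product can cross-link osteopontin, stood at 57.2 TPM in the C3G tumor and 76.0 TPM in the DMSO tumor. F2, Klk4 and Mmp20 were at 0 in both.

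All 10 osteopontin receptor genes were measured. Of the 9 that reached 5 TPM, 0 were called by size, beside 4.30% lower and 3.10% higher over all genes. The median log2 ratio of the 10 was -0.12. Itga8, an integrin alpha chain, came closest to the threshold, at 19.5 TPM in the C3G tumor and 9.89 TPM in the DMSO tumor, a ratio of 1.97 (1.73 to 2.25). Itgav, the alpha chain of the vitronectin receptor, stood at 32.5 TPM in the C3G tumor and 24.7 TPM in the DMSO tumor. Itga9 stood at 3.79 and 5.61 TPM and Itgb5 at 87.6 and 108 TPM in the C3G and DMSO tumors.

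Among 9 transcription factor genes known from enamel and bone, 6 reached 5 TPM. Beside 4.30% lower and 3.10% higher over all genes, 0 of the 6 were lower by size and 1 was higher, Dlx5. This homeobox gene stood at 12.6 TPM (157 reads) in the C3G tumor and 3.97 TPM (39 reads) in the DMSO tumor, a ratio of 3.18 (2.22 to 4.63). Runx2, the master regulator of bone formation, stood at 3.75 TPM in the C3G tumor and 6.68 TPM in the DMSO tumor, 1.78-fold lower (1.47 to 2.17) and short of the threshold. Satb1 stood at 9.47 and 6.85 TPM and Foxo1 at 38.8 and 48.0 TPM in the C3G and DMSO tumors. Sp6 was at 0 in both.

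Amelotin and Odam are placed in the basal lamina by which epithelium is attached. Of 8 genes of that attachment 7 reached 5 TPM and none was called by size, beside 4.30% lower and 3.10% higher over all genes. Itga6, the alpha chain of the hemidesmosome integrin, stood at 120.5 TPM in the C3G tumor and 84.0 TPM in the DMSO tumor, and Itgb4, its partner, at 42.0 and 50.2 TPM in the C3G and DMSO tumors. Col17a1, a hemidesmosome collagen, stood at 11.4 TPM in the C3G tumor and 7.71 TPM in the DMSO tumor. Plec, the plectin gene, stood at 24.8 TPM in the C3G tumor and 29.4 TPM in the DMSO tumor. All 8 genes of prolactin and STAT5 signalling, which drives the neighbouring caseins, reached 5 TPM. None was called either, beside the same shares over all genes. Cish, a feedback inhibitor that STAT5 induces, stood at 8.53 TPM in the C3G tumor and 5.21 TPM in the DMSO tumor, and Socs2, another, at 31.0 and 45.6 TPM in the C3G and DMSO tumors. Stat5b stood at 45.0 TPM in the C3G tumor and 35.9 TPM in the DMSO tumor, and Jak2 at 28.8 and 24.3 TPM in the C3G and DMSO tumors.

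Markers of other cells differed between the same libraries. The counts of calls in this paragraph stand beside 4.30% lower and 3.10% higher over all genes. Adipocyte markers summed to 988 TPM in the C3G tumor and 181 TPM in the DMSO tumor. Of these 7 genes 6 reached 5 TPM and all 6 were higher by size. Endothelial markers summed to 68.1 and 23.5 TPM in the C3G and DMSO tumors. All 6 reached 5 TPM and 5 were higher. T cell markers summed to 8.50 TPM in the C3G tumor and 29.1 TPM in the DMSO tumor. Of these 6 genes 2 reached 5 TPM and both were lower by size, and all 6 had a log2 ratio below 0. Myoepithelium markers had a median log2 ratio of -0.42 and summed to 514 TPM in the C3G tumor and 977 TPM in the DMSO tumor, with 2 of 6 lower. Those 2, the contractile genes Acta2 (318 TPM in the C3G tumor and 712 TPM in the DMSO tumor) and Myh11 (38.7 and 92.9 TPM in the C3G and DMSO tumors), carried the sum. The basal genes were mixed. Krt5 stood at 48.4 TPM in the C3G tumor and 36.2 TPM in the DMSO tumor. Trp63 stood at 14.9 and 11.9 TPM in the C3G and DMSO tumors, while Krt14 was lower, at 66.0 and 83.7 TPM. Of the 6 myoepithelium markers, 4 had a log2 ratio below 0 and 2 above. Of 8 cornified epithelium markers 2 reached 5 TPM and 1 of these, Sprr1a, was lower. It stood at 3.61 TPM in the C3G tumor and 31.8 TPM in the DMSO tumor. Sprr1b and Krtdap were at 0 in both. The list summed to 10.4 and 40.6 TPM in the C3G and DMSO tumors, most of the difference being Sprr1a. The loricrin gene Lor, with 8 reads in the C3G tumor and 0 in the DMSO tumor, and Krt1, with 8 reads in the C3G tumor and 1 in the DMSO tumor, went the other way. Of 8 bone cell markers 4 reached 5 TPM, and 1 of these, Dmp1, was lower by size. Of the same 4, 3 had a log2 ratio below 0 and 1 above. Bglap2 and Ibsp were at 0 in both. The list summed to 192 TPM in the C3G tumor and 251 TPM in the DMSO tumor. Most of the difference was Alpl, at 82.9 TPM in the C3G tumor and 125.8 TPM in the DMSO tumor. The part of these cells in the values of Amtn, Prol1 and Dmp1 was not tested.

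The protein-coding genes nearest to Amtn over the log2(TPM + 1) values of the 2 libraries were Fgg (6.09 TPM in the C3G tumor and 32.2 TPM in the DMSO tumor), Sprr1a and Xcl1 (4.87 TPM in the C3G tumor and 21.2 TPM in the DMSO tumor), at Euclidean distances of 0.33, 0.37 and 0.41. Those nearest to Prol1 were H2-M2 (3.17 TPM in the C3G tumor and 18.0 TPM in the DMSO tumor), Sprr1a and Gm21738 (4.01 TPM in the C3G tumor and 15.9 TPM in the DMSO tumor), at 0.45, 0.66 and 0.75. With 2 libraries such likeness is only that of 2 values.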

How the data were processed

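RNA from 1 C3G and 1 DMSO mammary tumor was sequenced after library preparation with the TruSeq RNA kit, version 2, per the labels' protocols. Per the submitters' processing notes, FastQC, MultiQC, Trimmomatic 0.38 and featureCounts 2.0.0 were used with mm10. The aligner and the treatment of reads that overlap several genes are not given in the sources used here. The kit does not mark strand, so overlapping and antisense genes cannot be told apart. The authors deposited TPM values for 55536 genes, and each library sums to 1000000 TPM.

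All 55536 identifiers matched GENCODE M21, the source of symbols, positions and exon-union lengths. TPM times that length was a whole multiple of 1 step for 100% of values above 0 (tolerance 0.01 of a step), and 1 step was taken as 1 read or read pair. Ratios came from the deposited TPM. Intervals came from the reads (Clopper-Pearson for ratios, Poisson for levels) and cover counting error only, not the spread between tumors. The reads carry no molecular identifiers and may repeat a molecule, so the intervals may be too narrow even for counting error. No test was run, since each group has 1 library. The calls by size and intervals were also run on simulated independent Poisson counts, without repeated molecules, a length trend or a spread between tumors. That checks the computation and not how well the intervals suit these data. Medians of lists used genes with a mean of at least 1 TPM. The text names the 7 genes, their coding neighbours (3 on each side), for each list other than cell markers up to 4 genes with the largest log2 ratio in size among those with a higher TPM of at least 5, genes at 0, and the 3 nearest genes of Amtn and Prol1; other genes were named after their values were seen. The members and lists were chosen with earlier results of these data known. Alternatives were pseudocounts of 0.1 and 5 TPM, filters, centring and rescaling. A minimum of 50 reads and a correction by eighths of gene length were added after the data were seen. Protein sequences were not used here, and 1 listed gene is not reported here. Python 3.11.15, pandas 2.3.3, numpy 2.4.6, SciPy 1.17.1 and matplotlib 3.10.9 were used.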

Additional observations from a re-analysis of the deposited data

How the results depend on the processing

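The count of 2 of the 7 genes lower by size (Amtn and Prol1) and of 0 higher was the same under all 8 alternatives run. With a pseudocount of 5 TPM the log2 ratios were -1.77 for Amtn and -1.91 for Prol1, the values nearest to 0 under any alternative, and with a pseudocount of 0.1 TPM they were -2.54 and -3.21. Centring moved Spp1 to -0.65. Shorter genes had lower ratios (median log2 ratio -0.20 in the shortest eighth of length, which holds Amtn and Prol1), and less that median the ratios were -2.14 for Amtn and -2.62 for Prol1. Smr3a, with 1 read in each tumor, ranged from -0.26 to 0.12. Over all genes, calls lower and higher numbered 1218 and 1086 with no filter, 241 and 109 with a higher TPM of at least 20, 309 and 179 with a pseudocount of 5 TPM, and 312 and 218 with at least 50 reads. The median of the other family genes was -0.15, against -0.49 with the stricter filter, -0.27 with centring and 0.00 with no filter, and that of macrophage markers -0.11, against -0.23 with centring. The list medians of osteopontin receptors, of phosphorylation and cleavage genes and of prolactin and STAT5 genes changed sign under some alternatives, within -0.29 to 0.02, -0.18 to 0.09 and -0.18 to 0.02, and no direction is drawn from them. No paired analysis was possible because each group has 1 library, and leaving out a library leaves no comparison. Depth limits Odam, Smr3a, Ambn and Enam, which had at most 17 reads in a library. It also limits Prol1 and Amtn, which had 15 and 27 reads in the C3G library, and the fold of Prol1 spans 5.60 to 17.8.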

Other observations

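Gm42793, an unclassified annotated locus of 1252 bases, lies wholly inside Spp1 on the same strand, and 943 of its bases are outside the Spp1 exons. It was noticed after its values were seen. It had 26 reads in the C3G tumor and 4 in the DMSO tumor, or 3.78 TPM in the C3G tumor and 0.737 TPM in the DMSO tumor, a ratio of 5.13 (1.78 to 20.2), while Spp1 itself had a ratio of 0.690 (0.675 to 0.706). The remaining bases of Gm42793 make up 18.8% of the Spp1 exon bases, and how reads in them were assigned is not given in the sources used here.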
